A study of Mus musculus with 48 samples.

Results

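Annexins are proteins that bind membrane phospholipids in the presence of calcium. The 8 members described here are Anxa1, Anxa2, Anxa3, Anxa4, Anxa5, Anxa6, Anxa7 and Anxa11. They are the rows of the count table with these symbols, 8 of 24062 genes, and were chosen to show which annexins follow the myeloid transcript Mpo, which follow the erythroid transcript Gata1, and which are even to both. The members were chosen by their measured levels across these cells beside Mpo and Gata1, so all values below are a description with no test. The study concerns inhibitors of TGF-beta signalling and red cell production, and looked for subpopulations of BFU-E, progenitors that form bursts of red cells in culture. The samples are 48 single cells of mouse fetal liver, each labelled BFU-E, in 1 group. The labelled stage is embryonic day 14.5. By the labels' protocol, cells with lineage markers, among them Gr-1, Mac-1 and CD16/CD32 of myeloid cells and CD34, were removed, c-Kit was kept, and the 10% with the lowest CD71 were sorted. Strain, animal and chip are not given by the labels, and cells of 1 sample are not replicates.

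Every annexin has a conserved core of repeats that dock on negatively charged lipids when calcium is bound, and an N-terminal tail that differs between members and binds partners such as S100 proteins. Anxa1 (lipocortin) is induced by glucocorticoids and signals through formyl peptide receptors to limit inflammation, and it is abundant in neutrophils and monocytes. Anxa3 is a neutrophil granule-associated annexin, Anxa2 pairs with S100a10 at the plasma membrane, and Anxa5 binds phosphatidylserine, for which it serves as a stain of dying cells. Anxa6 has a duplicated core and acts on endosomes, Anxa7 (synexin) binds sorcin, and Anxa11 binds the calcium sensor encoded by Pdcd6. Anxa4 binds membranes mostly in epithelia.

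A cell had 246007 to 3211186 counts in all, over 5180 to 7935 genes. Levels are in CPM, counts scaled to a common library size (TMM). Kit had a read in 46 of 48 cells, and Gata1 in 44. Mpo, the myeloperoxidase gene of neutrophil precursors, had a read in all 48 cells, the macrophage-like ones included (38.7 and 10.3 CPM). Whether such low reads belong to the cell was not tested, and cells are therefore counted from 10 CPM. Classes were cut from marker levels. Cells with 1000 CPM of Mpo or more are called Mpo-high (18 cells, 1129 to 53282 CPM of Mpo). Cells with 10 CPM of Gata1 or more and less Mpo are called Gata1 cells (26 cells, 16.3 to 1722 CPM of Gata1). The macrophage-like cells are 2 cells with 1000 CPM or more of C1qa, C1qb and C1qc together (15715 and 9314 CPM), and 2 further cells fall in no class. The classes are ranges and not cell types: 5 cells had 500 to 2000 CPM of Mpo, 3 had 5 to 20 CPM of Gata1, and 2 of the Mpo-high cells also held 10 CPM of Gata1. The median total was 1712834 counts in Mpo-high cells and 2074378 in Gata1 cells.

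The letters just upstream of the RefSeq starts of Anxa1 and Anxa2 are shown. They were picked because Anxa1 went with Mpo across the cells and Anxa2 went with neither lineage. Each line gives 250 bases before the RefSeq start on GRCm38.p6, 5′ to 3′, at chr19:20390672-20390921 (minus strand) for Anxa1 and chr9:69453433-69453682 (plus strand) for Anxa2. GENCODE places the starts elsewhere, at 20390944 for Anxa1 and 69453620 for Anxa2. By GENCODE the Anxa1 window thus lies inside the gene, and the end of the Anxa2 window runs into it. Capitals mark any match, on either strand, to a motif bound by the Gata1 family, written AGATAA, to that of PU.1, written GAGGAA, to that of C/EBP factors, written TTGCNNAA, or to that of RUNX factors, written TGTGGT.
Anxa1: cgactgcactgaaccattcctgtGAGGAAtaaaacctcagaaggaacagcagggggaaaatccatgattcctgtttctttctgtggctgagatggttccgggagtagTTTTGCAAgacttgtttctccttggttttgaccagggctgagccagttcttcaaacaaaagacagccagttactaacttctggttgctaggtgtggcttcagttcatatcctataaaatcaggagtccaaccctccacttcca
Anxa2: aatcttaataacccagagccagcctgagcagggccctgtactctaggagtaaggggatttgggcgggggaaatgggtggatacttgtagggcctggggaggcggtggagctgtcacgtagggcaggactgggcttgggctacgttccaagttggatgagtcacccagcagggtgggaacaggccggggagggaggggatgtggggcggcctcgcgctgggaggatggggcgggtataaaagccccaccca
The Anxa1 window held 1 match to GAGGAA and 1 to TTGCNNAA, and the Anxa2 window held none of the 4 motifs. Even members also held matches: the Anxa11 window had 1 to GAGGAA, and 1 of the 2 Anxa4 windows had 1 to AGATAA and 1 to TTGCNNAA. The windows of Anxa5 and Anxa7 held none. Over 32851 RefSeq promoters of the same length, 23.3% held GAGGAA, 9.56% held TTGCNNAA, 9.99% held AGATAA and 14.05% held TGTGGT. A match describes these letters and is not a binding site. Of the 8 members 6 had a promoter in the table. Anxa3 and Anxa6 had none.

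The annexins split into a pair that followed Mpo and 6 members that followed neither transcript. A member was said to follow a transcript at a Spearman rho of 0.4 or more over the 46 cells without the macrophage-like cells. The cells share 1 library protocol and were pooled for sequencing, and depth differs between them. Anxa1 had a rho of 0.699 to Mpo and Anxa3 one of 0.627, so 2 of 8 members passed, beside 3.62% of 8600 genes. The same 2 members had a rho to Gata1 of -0.4 or less (-0.510 for Anxa1 and -0.528 for Anxa3), beside 2.17% of genes. A rho that passed on both sides was found in 1.6% of genes. No member followed Gata1, beside 1.74% of genes; the highest was Anxa11, at 0.240. No member had a rho to Mpo of -0.4 or less, beside 1.53% of genes. The 6 even members compare with 93.3% of all genes that were even. No member lay close above the limit for Mpo: the lowest that passed was Anxa3, at 0.627, and the highest that did not was Anxa6, at 0.367. Mpo and Gata1 themselves had a rho of -0.606, so a rho to the one carries part of the other. Median rho to Mpo was 0.179 over the members and 0.00198 over all genes, and median rho to Gata1 was -0.135 and 0.0151. These rho values were used to pose the question and are given as a description.

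**Figure D1:**
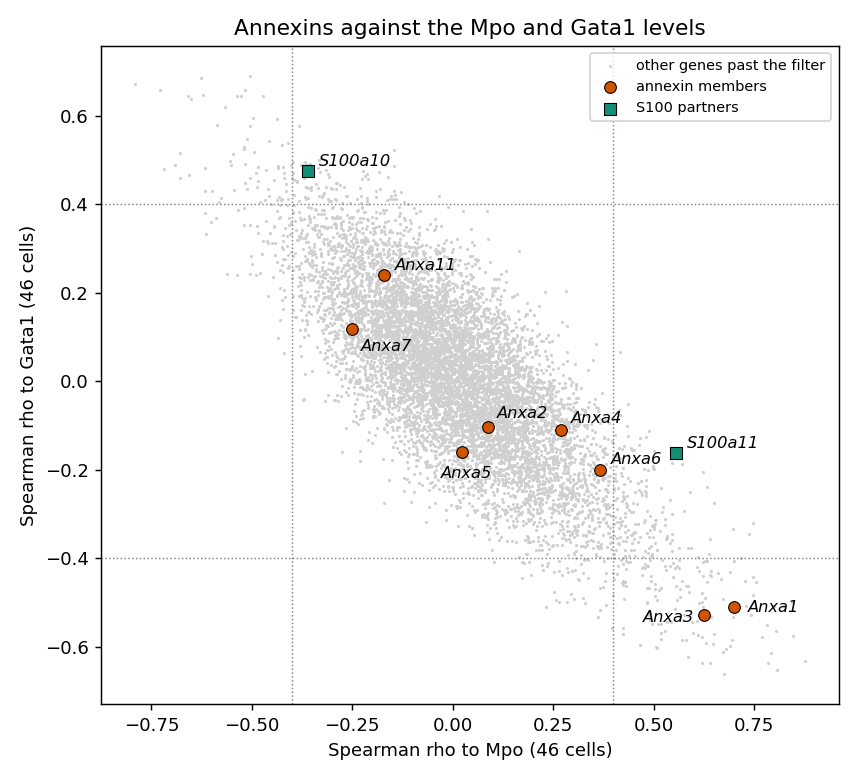
Spearman rho to Mpo (x axis) and to Gata1 (y axis) across 46 cells for each gene past the filter (grey), the annexins (orange circles) and the S100 genes S100a10 and S100a11 (green squares). Dotted lines mark 0.4 and -0.4; Anxa1 and Anxa3 lie past both limits at the lower right, and the other 6 annexins lie inside all 4 lines.

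Anxa1 had the highest rho to Mpo of the members. Across the 18 Mpo-high cells it ran from 0 through a median of 163 to 1770 CPM, and across the 26 Gata1 cells from 0 through 0.452 to 208 CPM. It reached 10 CPM in 15 of 18 Mpo-high cells (83.3%, exact 95% Clopper-Pearson interval 58.6 to 96.4%) and in 2 of 26 Gata1 cells (7.69%, 0.946 to 25.1%). The ranges overlapped through those 2 Gata1 cells, at 208 and 155 CPM, and through the 3 Mpo-high cells under 10 CPM. The intervals cover the counting of cells only; the cells are 1 sample, and the classes were cut by Mpo and Gata1. Mpo was at 52.5 CPM in the Gata1 cell with 208 CPM of Anxa1, which had the lowest total count of all cells, and at 529 CPM in the other.

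The 14 Mpo-high cells of highest Mpo, at 2166 CPM or more, all held 10 CPM of Anxa1. This number of cells was chosen after the values were seen. The 3 Mpo-high cells below 10 CPM, at 4.96, 0 and 0 CPM of Anxa1, had 2077, 1933 and 1631 CPM of Mpo. The Mpo-high cell of lowest Mpo, at 1129 CPM, nevertheless held 155 CPM of Anxa1. Within the 18 Mpo-high cells the rho of Anxa1 to Mpo was 0.582, where 7.3% of genes had 0.4 or more and 4.92% had -0.4 or less. Within the 26 Gata1 cells its rho was 0.224 to Mpo and -0.0807 to Gata1, both inside the limits. In the macrophage-like cells Anxa1 was at 0.692 and 0 CPM. Anxa1 ranked 23 among all genes by rho to Mpo.

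Anxa3 was at 10 CPM in no Gata1 cell. It ran from 0 through a median of 121 to 1134 CPM in Mpo-high cells, and from 0 through 0 to 0.541 CPM in Gata1 cells. It reached 10 CPM in 11 of 18 Mpo-high cells (61.1%, interval 35.7 to 82.7%) and in 0 of 26 Gata1 cells (interval 0 to 13.2%). All 11 were among the 12 cells of highest Mpo, from 3885 CPM, a number of cells chosen after the values were seen. The 6 Mpo-high cells below them, at 1129 to 3025 CPM of Mpo, had at most 2.13 CPM of Anxa3. Within the Mpo-high cells its rho to Mpo was 0.618. Within the 26 Gata1 cells, which held at most 0.541 CPM of Anxa3, its rho was -0.0125 to Mpo and 0.159 to Gata1. The macrophage-like cells held 74.0 and 32.3 CPM of it, so Anxa3 was not limited to Mpo-high cells in the whole set of 48.

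A single Mpo-high cell broke the pattern of Anxa3. It had 6329 CPM of Mpo and 811 CPM of Gata1, with 792 CPM of Anxa1 and 0 CPM of Anxa3. The other Mpo-high cell with 10 CPM of Gata1 had 7904 CPM of Mpo, 53.7 CPM of Gata1, 119 CPM of Anxa1 and 554 CPM of Anxa3. These 2 cells were chosen after their values were seen. No doublet caller was run on 48 cells, and the labels state that chambers were inspected for a cell by eye.

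**Figure D2:**
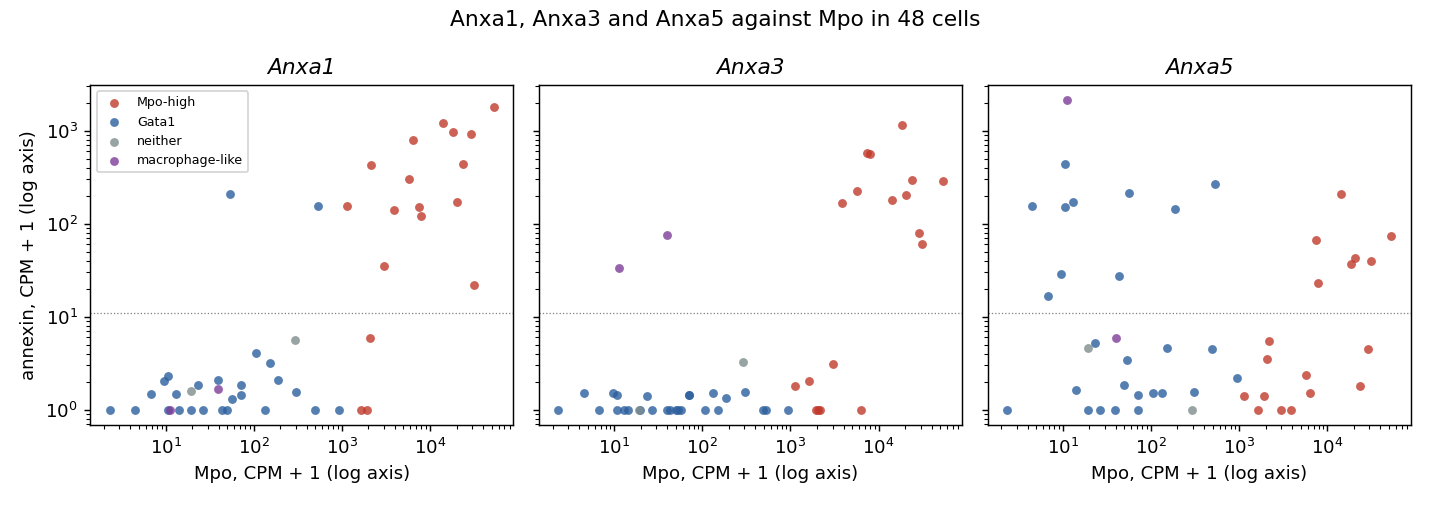
Each point is 1 of 48 cells, with Mpo on the x axis and Anxa1, Anxa3 or Anxa5 on the y axis (CPM + 1, log axes), coloured by marker class. The dotted line marks 10 CPM; 15 of 18 Mpo-high cells lie above it for Anxa1, 11 for Anxa3 and 7 for Anxa5.

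Anxa1 and Anxa3 went together across the 46 cells. Their rho was 0.555, the 1 of 28 annexin pairs at 0.4 or more, beside 0.58% of all gene pairs. Each of the 2 also followed Mpo, by which they were singled out, so their rho to each other is not independent of that choice. No rho between them within a class is given. In the 46 cells, 11 held 10 CPM of both, 6 held Anxa1 alone, 0 held Anxa3 alone and 29 held neither. The other 27 pairs had rho from -0.336 (Anxa1 and Anxa7) to 0.254 (Anxa1 and Anxa4). The median over the 28 pairs was 0.0783, and 0.0140 over all gene pairs. A cell held a median of 3 members at 10 CPM, with 0 to 6 per cell. The median was 4 in Mpo-high cells and 2 in Gata1 cells. These medians include Anxa1 and Anxa3, which followed Mpo, and the classes were cut by Mpo. They are not set against all genes and do not describe the other members.

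The genes most like Anxa1 across the 46 cells were Fcgr3 (rho 0.716), which encodes CD16, an Fc receptor of myeloid cells that the labelled sort selects against, Mpo (0.699) and Aoah (0.675), which encodes an enzyme that inactivates bacterial lipopolysaccharide. For Anxa3 they were Rab31 (0.704), a small GTPase of vesicle traffic, Ctsg (0.698), which encodes the granule protease cathepsin G, and Cebpa (0.694), a regulator of granulocyte fate.

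The same pair stood out against marker scores that leave Mpo and Gata1 out. Spearman rho to the neutrophil and monocyte score was 0.666 for Anxa1 and 0.627 for Anxa3, beside 3.18% of genes at 0.4 or more and 1.51% at -0.4 or less. Spearman rho to the erythroid score was -0.463 and -0.451, beside 2.46% of genes at -0.4 or less and 2.53% at 0.4 or more. These scores rest on the same cells and on genes that move with Mpo and Gata1, and are not independent of them. The other 6 members stayed between -0.4 and 0.4 to both scores. For the megakaryocyte score the 8 members ran from -0.325 (Anxa3) to 0.0964 (Anxa5), beside 0.803% of genes at 0.4 or more and 0.698% at -0.4 or less. For the stem and early progenitor score they ran from -0.275 (Anxa7) to 0.293 (Anxa1), beside 1.14% and 1.47% of genes. For the macrophage score they ran from -0.395 (Anxa5) to 0.147 (Anxa3), beside 0.559% and 0.466% of genes. No member passed 0.4 or -0.4 for these 3 scores.

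Marker lists of other cells also differed between the classes. The summed neutrophil and monocyte list ran from 1404 to 76279 CPM in Mpo-high cells and from 7.28 to 1367 CPM in Gata1 cells. That sum includes Mpo, by which the classes were cut, so much of this difference was set by the cut. The mast cell and basophil list ran from 1.24 to 2293 CPM in Mpo-high cells, with a median of 297, and from 0 to 2253 CPM in Gata1 cells, with a median of 2.69. In that list Gzmb, Fcer1a and Prss34 were at 0 in all cells. The macrophage list summed to at most 92.7 CPM in Mpo-high cells and 2619 CPM in Gata1 cells, against 44873 and 57777 CPM in the macrophage-like cells. It includes C1qa, C1qb and C1qc, by which the macrophage-like cells were set apart. The part of these cells or transcripts in the annexin levels was not tested.

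**Figure D3:**
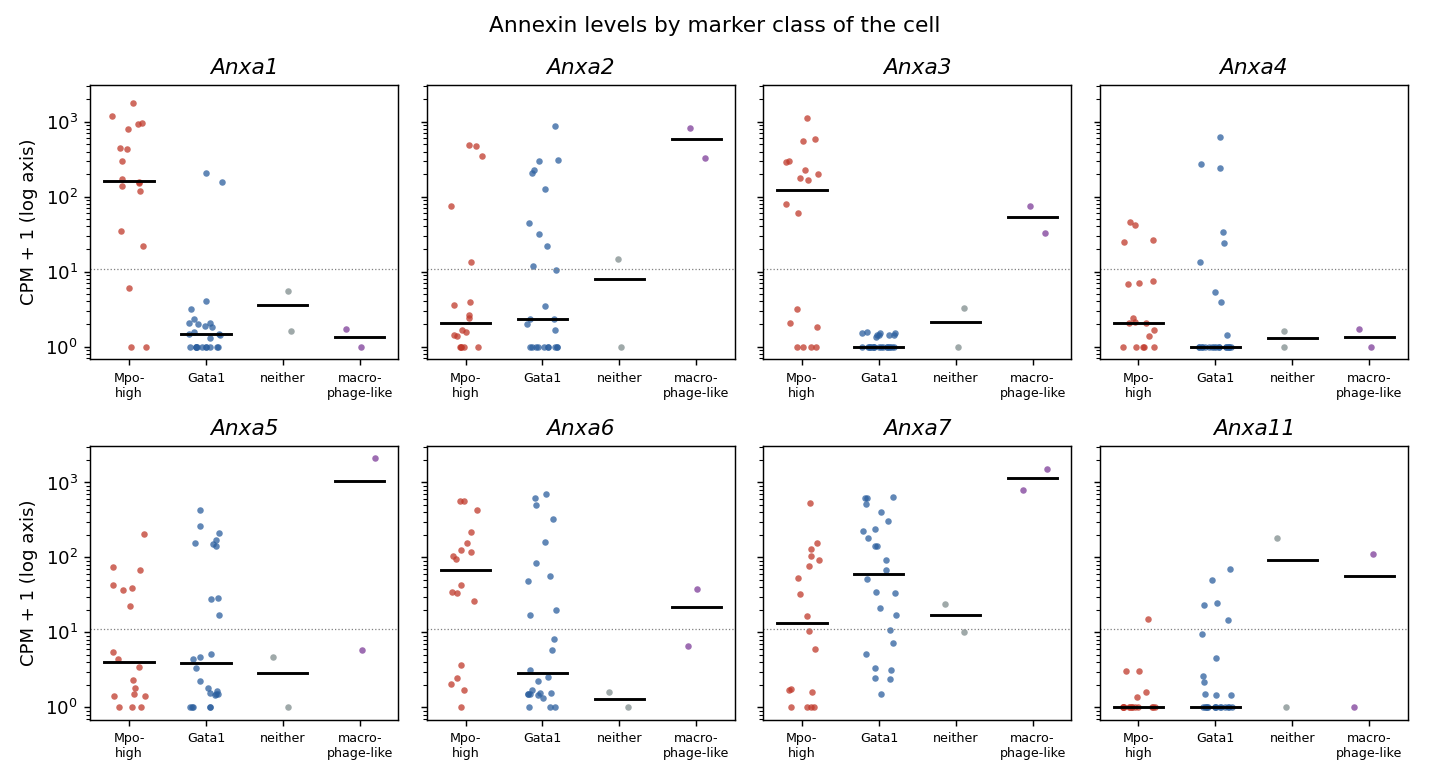
Level of each annexin in every cell (CPM + 1, log axis) by marker class: Mpo-high (18 cells), Gata1 (26), neither (2) and macrophage-like (2). Black bars are medians and the dotted line marks 10 CPM. For Anxa3 every Gata1 cell lies under 1 CPM. Anxa2, Anxa4, Anxa5, Anxa6 and Anxa7 reached 10 CPM in several cells of both large classes. Anxa11 did so in 1 of 18 Mpo-high and 5 of 26 Gata1 cells.

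Anxa6 came nearest to the pair. It ran from 0 through a median of 67.6 to 572 CPM in Mpo-high cells and from 0 through 1.85 to 707 CPM in Gata1 cells. It reached 10 CPM in 13 of 18 Mpo-high cells (interval 46.5 to 90.3%) and in 10 of 26 Gata1 cells (20.2 to 59.4%), and the ranges overlapped fully. Its rho to the number of genes detected, 0.367, was as high as its rho to Mpo. With that number as a covariate, its rho to Mpo was 0.354. Within the Mpo-high cells its rho to Mpo was -0.288, and within the Gata1 cells it was 0.427, beside 4.05% of genes at 0.4 or more. Its nearest genes were Cntrl (0.586), a centrosome protein gene, Tmem30a (0.565), which encodes a subunit of phospholipid flippases, and Fryl (0.543).

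Anxa5 was even overall and uneven inside the Mpo-high class. It ran from 0 through a median of 2.97 to 206 CPM in Mpo-high cells and from 0 through 2.92 to 433 CPM in Gata1 cells, and reached 10 CPM in 7 of 18 and 10 of 26 cells. Its rho to Mpo was 0.0237 over the 46 cells. Within the 18 Mpo-high cells it was 0.681. All 7 cells at 10 CPM there were among the 12 of highest Mpo, a number chosen after the values were seen. Within the 26 Gata1 cells its rho to Gata1 was -0.417, beside 2.22% of genes at -0.4 or less and 2.31% at 0.4 or more. With 18 or 26 cells and many values near 0, a rho within a class is a loose description.

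Among the genes most like Anxa5 over the 46 cells were Spata2 (0.596) and F630111L10Rik (0.561). The macrophage-like cells held 4.84 and 2110 CPM of Anxa5, the second being the highest value of the 48 cells. With them its mean was 88.0 ± 311 CPM (SD, n = 48), and without them 45.8 ± 89.1 CPM (SD, n = 46).

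Anxa2 was high in few cells of either class. It ran from 0 through a median of 1.05 to 486 CPM in Mpo-high cells and from 0 through 1.34 to 881 CPM in Gata1 cells. It reached 10 CPM in 5 of 18 and 10 of 26 cells, and the ranges overlapped. Its rho was 0.0873 to Mpo and -0.103 to Gata1. The macrophage-like cells held 833 and 327 CPM. The genes most like it were Bad (0.508), which encodes a death-promoting Bcl2 relative, Fastkd5 (0.493) and Snx20 (0.492).

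Among the members Anxa7 was read in the largest number of cells, 44 of 48 (interval 80.0 to 97.7%), and it reached 10 CPM in 30. It ran from 0 through a median of 12.5 to 528 CPM in Mpo-high cells, and from 0.503 through 58.8 to 641 CPM in Gata1 cells. All 26 Gata1 cells had a read and 14 of 18 Mpo-high cells did, while 18 of 26 and 9 of 18 cells reached 10 CPM. The ranges overlapped, and rho was -0.250 to Mpo and 0.118 to Gata1. The macrophage-like cells held the 2 highest values of the 48, at 1512 and 783 CPM. Its rho to the total count was 0.298, the highest of the members. Nearest to it were Aste1 (0.510), Slmap (0.501) and Kif22 (0.480), the last a mitotic kinesin gene.

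Anxa4 and Anxa11 were low and rested on few cells. Anxa4 ran from 0 through a median of 1.09 to 44.5 CPM in Mpo-high cells and from 0 through 0 to 621 CPM in Gata1 cells, with 4 of 18 and 6 of 26 cells at 10 CPM. The 3 highest cells, all Gata1 cells, held 82.7% of its summed CPM. Its rho to Mpo was 0.271, but 0.0295 with all cells thinned to the lowest total count, and Pearson's r was 0.0619 with a pseudocount of 1 and -0.0600 with 10. Nearest to Anxa4 were Skiv2l2 (0.529), an RNA helicase gene, Appl2 (0.510) and Pglyrp1 (0.481), a peptidoglycan recognition protein gene of neutrophils. Anxa11 ran from 0 through 0 to 14.1 CPM in Mpo-high cells and from 0 through 0 to 69.7 CPM in Gata1 cells, with 1 of 18 and 5 of 26 cells at 10 CPM. Its highest value, 183 CPM, lay in a cell of neither class. Nearest to Anxa11 were Ptcd2 (0.561), Foxn3 (0.530) and Sord (0.498).

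**Figure D4:**
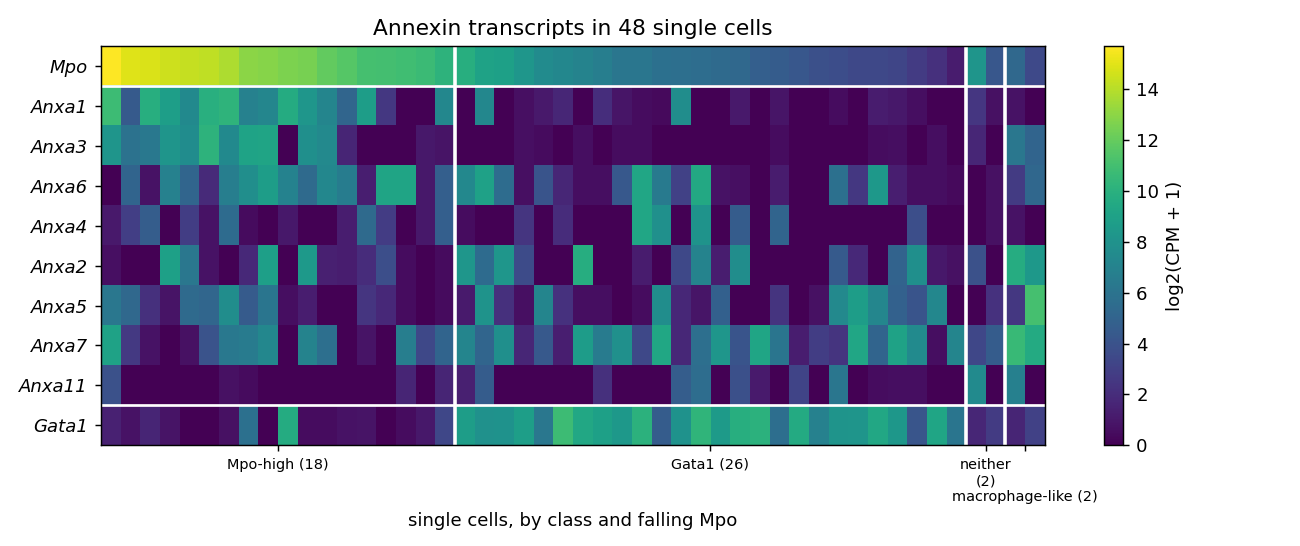
Level of each annexin, with Mpo on top and Gata1 at the bottom, in 48 cells (columns) ordered by class and falling Mpo; colour is log2(CPM + 1). Anxa1 and Anxa3 fill the left side under the highest Mpo. The rows of the other annexins are scattered over both large classes, though that of Anxa11 is nearly empty in Mpo-high cells.

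Counted over the 8 members, 4 reached 10 CPM in a larger share of Mpo-high than of Gata1 cells (Anxa1, Anxa3, Anxa5 and Anxa6), beside 44.6% of all genes. For Anxa5 the shares were 38.9% and 38.5%. The count for the family is near that of all genes.

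Levels between annexins can be set side by side only per length. Over the 48 cells, mean level per kilobase of exon was 57.1 CPM for Anxa1, 49.5 for Anxa5, 36.3 for Anxa6, 27.4 for Anxa7, 26.5 for Anxa2, 22.1 for Anxa3, 6.12 for Anxa4 and 2.56 for Anxa11. Each cell-to-cell SD was larger than its mean, for example 166 ± 366 CPM for Anxa1 and 164 ± 286 CPM for Anxa7 before division by length (SD, n = 48). These SDs describe the spread between cells and not the error of a mean. The order by median per kilobase was another: 5.53 CPM for Anxa7, 3.95 for Anxa6, 1.94 for Anxa5, 0.374 for Anxa2 and 0.357 for Anxa1. Below them came Anxa3 at 0.116, Anxa4 at 0.0390 and Anxa11 at 0 CPM. The 3 highest cells held 49.2% of the summed CPM of Anxa1 and 66.5% of that of Anxa5. Whether neighbours in either order differ was not tested. Without the macrophage-like cells the mean of Anxa5 was 25.8 CPM per kilobase, and that of Anxa1 was 59.6. Of the cells with a read of a member, many were under 10 CPM, from 11 cells for Anxa11 to 21 for Anxa5.

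Of the annexins outside the members, Anxa9 was read in 12 cells and reached 10 CPM in 6, up to 398 CPM. Its rho was -0.118 to Mpo and 0.119 to Gata1. Anxa8, Anxa10 and Anxa13 were read in 0 of 48 cells. By the approximate rule of 3 over the number of cells, this limits the share of cells with a read to 6.25% (3 of 48). That limit is not the exact interval used for the other shares. It does not limit the share of cells that express the gene.

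The S100 partners went different ways from each other. S100a11, which binds Anxa1, ran from 0 through a median of 66.0 to 554 CPM in Mpo-high cells and from 0 through 26.5 to 114 CPM in Gata1 cells, with overlapping ranges. Its rho was 0.557 to Mpo, 0.456 to Anxa1 and -0.162 to Gata1. S100a10, which binds Anxa2, ran from 0 through 24.5 to 433 CPM in Mpo-high cells and from 6.21 through 89.9 to 496 CPM in Gata1 cells. Its rho was 0.476 to Gata1, -0.360 to Mpo and 0.167 to Anxa2. It reached 10 CPM in 9 of 18 Mpo-high cells and 25 of 26 Gata1 cells. In the macrophage-like cells, which were high in Anxa2, S100a10 was at 0 and 1.47 CPM.

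Of the 16 genes of S100 proteins and annexin partners 8 passed the filter, 2 of them with a rho to Mpo of 0.4 or more (S100a8 and S100a11) and 1 to Gata1 (S100a10), beside 3.62% and 1.74% of all genes. S100a8, an alarmin of neutrophils, was read in 13 cells. Pdcd6, the partner of Anxa7 and Anxa11, was read in all 48 cells at a median of 147 CPM, with a rho of 0.214 to Anxa7 and -0.239 to Anxa11. Sri, which encodes sorcin, had a rho of 0.0602 to Anxa7. Of the formyl peptide receptors Fpr1 was read in 8 cells and Fpr2 in 0. Pla2g4a, the phospholipase that Anxa1 restrains, was read in 32 cells, with a rho of 0.131 to Anxa1. Of 15 genes of membrane repair and phosphatidylserine exposure 12 passed the filter, 1 with a rho to Mpo of 0.4 or more (Tmem30a, 0.403) and 0 to Gata1, which is near the 3.62% and 1.74% of all genes.

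By position on GRCm38, in GENCODE, Anxa1 (ENSMUSG00000024659) lies on chromosome 19, 20373428 to 20390944, minus strand. Anxa3 (ENSMUSG00000029484) lies on chromosome 5, 96793339 to 96845966, plus strand. Anxa5 (ENSMUSG00000027712) lies on chromosome 3, 36448923 to 36475894, minus strand. Anxa7 and Anxa11 are both on chromosome 14, from 20455260 and from 25842156, and had a rho of 0.145. Exons of Anxa2, Anxa3, Anxa4 and Anxa11 share 75 to 113 bases with a non-coding or unclassified gene that is not a row of the count table. The strand setting of the counting is not given in the sources used here, so reads from those stretches cannot be told apart.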

How the data were processed

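Single cells were captured on a Fluidigm C1 chip, and SMART-Seq cDNA and Nextera XT libraries were made, per the labels' protocols. The deposited counts are whole-number reads per gene, and the submitters' processing notes name TopHat2 2.0.12, featureCounts 1.4.6 (Subread) and mm10. Per the deposited tables, counts are not normalized. The authors' deposited log2 table equals log2 of count over a median-of-ratios size factor, plus 1, within 1e-06, and served as an alternative. Column names match no sample title, so the 48 cells count as 1 sample.

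CPM used TMM library sizes (factors 0.419 to 1.70) from edgeR 4.0.16 in R 4.3.3. Genes past the filter had a read in 10 cells and a mean of 5 CPM (8601). Spearman's rho, intervals and scores (mean z-score of log2(CPM + 1) over at least 3 genes) were computed in Python 3.11.15 with numpy 2.4.6, pandas 2.3.3 and scipy 1.17.1, and figures drawn with matplotlib 3.10.9. The rho step was tested on simulated counts with genes tied to a known axis rather than to a measured transcript. That run concerns the computation and not the values given here. No p-values were made, since the cells are 1 sample. Exon length is the union of GENCODE M21 exons on GRCm38; promoters are from RefSeq, GRCm38.p6.

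Named genes are the members, genes of fixed lists, and the 3 genes of highest rho to each member, of which 1 is not reported here. Members, lists and limits were chosen with earlier results of these data known. The lymphoid, hepatoblast, and endothelial and stromal lists had 0, 1 and 1 genes past the filter, and with the mast cell and basophil list (2) got no score.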

Additional observations from a re-analysis of the deposited data

How the results depend on the processing

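Under 11 alternatives the 2 members that followed Mpo remained Anxa1 and Anxa3, and 0 members followed Gata1; with a limit of 0.3 Anxa6 joined the pair, as the 1 of 176 member values that crossed its limit. Alternatives were all 48 cells, leaving out cells with 100 CPM or more of C1q, dropping the 5 shallowest cells, thinning to 246007 counts, no TMM factors, the deposited log2 table, Pearson's r with pseudocounts of 1 and 10, the number of genes detected as covariate, and limits of 0.3 and 0.5. With Pearson's r counted beside rho, the value to Mpo ranged from 0.697 to 0.785 for Anxa1 and from 0.564 to 0.752 for Anxa3. The upper ends are Pearson's r with a pseudocount of 1. The highest Spearman rho was 0.768 for Anxa1 and 0.678 for Anxa3, after thinning. Anxa4 to Mpo, 0.271 in the main setting, ranged from -0.0600 (Pearson's r with a pseudocount of 10) to 0.287. Anxa5 to Mpo and Anxa2 and Anxa4 to Gata1 also changed sign under some of them. With every gene read in a cell as background, 2.51% rather than 3.62% of genes had 0.4 or more to Mpo. The count of members with the larger share in Mpo-high cells was 4 to 5 for Mpo limits of 500 or 2000 CPM and after thinning. No paired analysis was possible because the labels give 1 group. In the shallowest cells a level under 10 CPM rests on few reads. The limit of 10 CPM stands for more reads in deeper cells, as totals ran from 246007 to 3211186 counts.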
